A study of Pinus elliottii with 16 samples.

Results

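The features described here are the 100 that varied least across all libraries of a study of resin tapping in slash pine (Pinus elliottii). They were chosen by their measured values. A feature, meaning an annotated locus or transcript model, had to average at least 100 normalized fragments over the 16 libraries. It also had to lie outside the 100 most abundant features of the control libraries. Of 8949 features, 3549 reached the average and 3449 passed both conditions, and these are called eligible below. The 100 with the lowest standard deviation (SD) of log2(value + 1) over the 16 libraries were kept, 2.90% of the eligible features and 1.12% of all features. Since the spread itself chose them, their small spread and small group differences are descriptions of the list and carry no test.

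RNA came from vascular cambium (the tissue whose divisions add wood inwards and bark outwards) of 16-year-old trees that had been tapped fortnightly with stimulant paste for the year before. The paste day 15 and paste day 5 groups had bark stripped and the wound streaked with a paste of 3% ethephon and 20% sulfuric acid, and tissue was harvested 15 and 5 days later. The control day 15 and control day 5 groups had the same bark wound without paste, harvested at the same times, and each of the 4 groups had 4 libraries. Tissue was taken slightly above the wound, so all groups share wounding and earlier tapping, no group was unwounded, and no group received ethephon or acid alone. The labels mention 4 trees picked at random but do not say which library came from which tree, so the spread between libraries of a group may not be a spread between separate trees.

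Ethephon breaks down in plant tissue to ethylene, a gaseous hormone that takes part in wound and defence responses, and in pines ethylene is known to promote the formation of resin ducts and resin flow. Genes with steady expression across a treatment are used as references, because a change in a responsive gene can only be read against something that stays put. Scaling methods that take the middle of all features rest on a similar assumption, namely that most features do not change between libraries. The deposited tables pair no identifier with a gene name, a description, a sequence or a position, so no role is given to any feature, members are named by their deposited identifiers, and the cambium label could not be checked against marker genes.

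Depth per library was 3323971 to 5203943 estimated fragments, with a value above 0 for 6351 to 6901 features. The paste libraries labelled replicate 1, from day 15 and day 5, were nearly identical, and paste day 15 replicate 3 lay closer to the paste day 5 libraries than to its own group across the eligible features. Both conditions were looked at within the list. Over the 100 features the root mean square difference of log2 values between the near-identical libraries was 0.0985, where counting error alone would give 0.0783. The other pairs among the 120 pairs of libraries differed by 0.160 to 0.311. Over the eligible features the pair differed by 0.227, against 0.133 from counting. It thus differed by more than counting error and was counted as 2 libraries, but it may be 1 sample under 2 labels, which cannot be told from the labels. One of the paste groups printed with n = 4 would then hold a library of the other, and paste day 15 against day 5 would not be 4 against 4 independent libraries. Paste day 15 replicate 3 differed on average by 0.196 from the paste day 5 libraries and by 0.226 from its own group over these features. Over the eligible features the same 2 averages were 1.11 and 1.82. Without the near-identical pair the rule, applied to the remaining libraries, took 85 of the 100 features again. Without that pair and paste day 15 replicate 3 it took 76, and the median SD of the 100 was then 0.159, against 0.155 over all 16 libraries.

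The steadiest feature was PITAhm_003158, with an SD of 0.104 on the log2 scale and a coefficient of variation of 7.35%. Its normalized fragment count was 376, 367, 361 and 413 in the paste day 15 libraries, replicates 1 to 4. With paste at day 5 it was 327, 358, 398 and 341. In controls it was 415, 338, 368 and 344 at day 15, and 349, 378, 354 and 336 at day 5. The 4 groups overlapped, with means of 379 ± 23.4 (paste day 15), 356 ± 30.9 (paste day 5), 366 ± 35.3 (control day 15) and 354 ± 17.3 (control day 5; SD, n = 4 each). The highest of the 16 libraries was 1.27 times the lowest.

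PITA_000000598 came second, with an SD of 0.111. It measured 897, 823, 977 and 921 with paste at day 15, and 868, 988, 921 and 797 with paste at day 5. Control libraries measured 966, 881, 976 and 764 at day 15 and 838, 932, 932 and 945 at day 5. The group means differed little, 905 ± 64.0 and 893 ± 80.9 with paste at day 15 and day 5, and 897 ± 98.4 and 912 ± 49.5 in controls at day 15 and day 5 (SD, n = 4 each). Group membership accounted for 1.46% of its variance.

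PITA_000013758, with an SD of 0.114, averaged 1183 ± 126 and 1108 ± 53.8 with paste at day 15 and day 5, and 1123 ± 85.0 and 1115 ± 99.3 in controls at day 15 and day 5 (SD, n = 4 each). Its highest value, 1329.7, was in paste day 15 replicate 2, and its lowest, 998, was in control day 15 replicate 2. PITA_000050687, next in order, also had an SD of 0.114 but was arranged differently. Its values were 424, 444, 454 and 409.6 with paste at day 15 and 444, 458, 480.2 and 482 with paste at day 5, against 456, 437, 517 and 453 in controls at day 15 and 524, 546, 501 and 480.0 in controls at day 5. The control day 5 libraries were high and the paste day 15 libraries low on average, with some overlap with the groups between them, and 61.4% of its small variance lay between the groups. The list thus held features of low spread both with nearly equal and with unequal group means.

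The 100 features spanned a wide range of levels. The mean normalized fragment count ran from 126 to 5836 with a median of 657, where the eligible features had a median of 443. The files give no feature lengths, and longer features collect more fragments, so a level here is a depth of counting and not an expression per length. PITA_000000293 had the highest mean of the list. It measured 5321, 5268, 6015 and 6132 with paste at day 15 and 5296, 6120.3, 6819 and 6083 with paste at day 5, against 4369.8, 4973, 5861 and 5371 in controls at day 15 and 6171, 6469.7, 6466 and 6642 in controls at day 5. All 4 control libraries of day 15 lay below those of day 5 for this feature. PITA_000013141 had the second highest mean, with group means of 5444 ± 506 (paste day 15), 5486 ± 849.9 (paste day 5), 5514 ± 261 (control day 15) and 5464 ± 732 (control day 5; SD, n = 4 each). The groups accounted for 0.406% of its variance, although its single libraries ran from 4654 to 6678.

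At the low end, PITAhm_002709 measured 125, 119.7, 136 and 118 with paste at day 15 and 111, 126, 124 and 165 with paste at day 5. In controls it measured 138, 115, 129.8 and 115 at day 15 and 122, 135, 107 and 123 at day 5. Apart from paste day 5 replicate 4, the libraries stayed between 107 and 138. PITA_000005692 averaged 191 ± 23.2 and 189 ± 34.9 with paste at day 15 and day 5, and 189 ± 11.2 and 189.7 ± 7.63 in controls at day 15 and day 5 (SD, n = 4 each). Its 4 group means lay within 0.03 of each other on the log2 scale, while the paste libraries spread more widely than the controls.

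**Figure D1:**
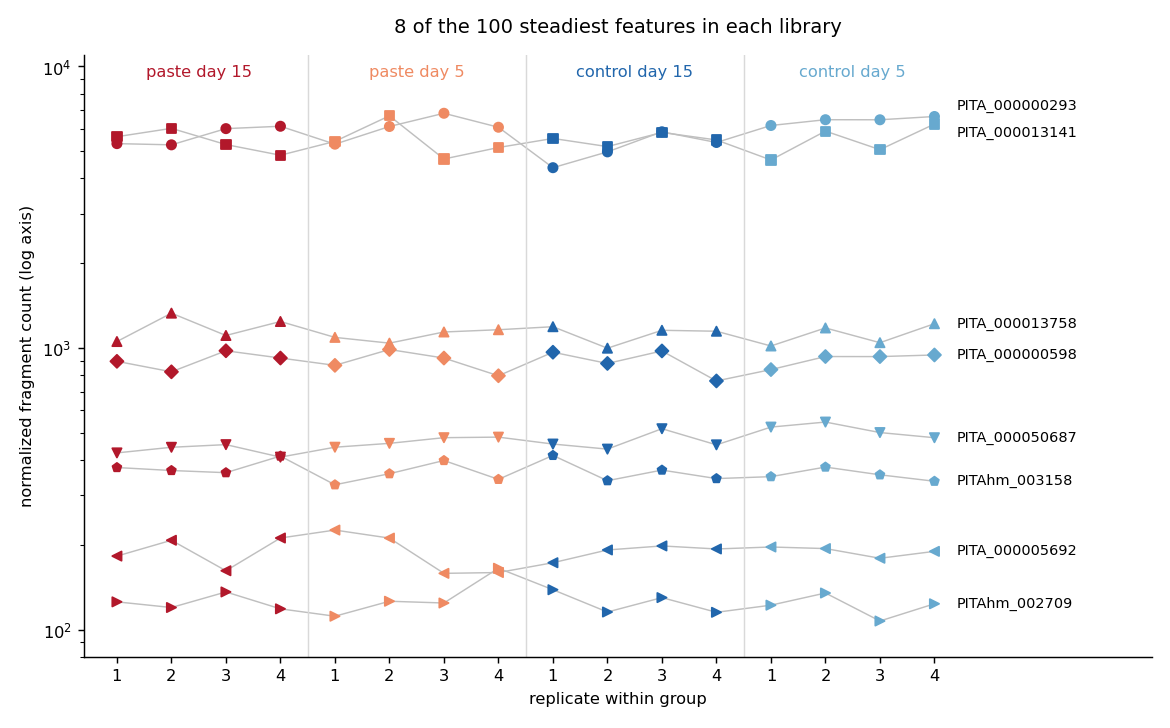
Normalized fragment count (vertical log axis) of 8 of the 100 features in each of the 16 libraries, with the replicates of each group side by side and 1 point per library. Means run from 126 for PITAhm_002709 to 5836 for PITA_000000293, whose 4 control day 15 libraries all lie below those of control day 5.

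Every one of the 100 features was above 0 in every library, with at least 85 estimated fragments, and none carried a low-data status, which 12 eligible features did. The highest library was between 1.27 and 1.73 times the lowest, with a median of 1.48. It was less than 1.5 times the lowest in 59 of the 100 and less than 2 times in all 100. Among the eligible features 18.2% stayed within 2 times, and of those above 0 in every library the median ratio was 3.10. The coefficient of variation of the 100 ran from 7.35% to 13.4% with a median of 10.7%, and the eligible features had a median of 32.6%. These contrasts follow from the rule.

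The edge of the list was not a natural break. The last 2 features inside were PITA_000047411 with an SD of 0.1762 and PITA_000001489 with 0.1764, and the first 2 outside were PITAhm_001981 with 0.1766 and PITAhm_000842 with 0.1767. PITA_000001489 averaged 4155 ± 508 and 4431 ± 521 with paste at day 15 and day 5, and 4387 ± 418 and 5046 ± 435 in controls at day 15 and day 5. PITAhm_001981 averaged 1331 ± 108 and 1335 ± 97.8 with paste, and 1282 ± 235 and 1435 ± 182 in controls, in the same order of days (SD, n = 4 each). An SD at the edge corresponds to 1.13-fold. Below the average of 100, 695 features averaged 50 to 100, and 2 of them had an SD at or under the edge. Of the 100 most abundant control features that the rule set aside, 1 did.

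**Figure D2:**
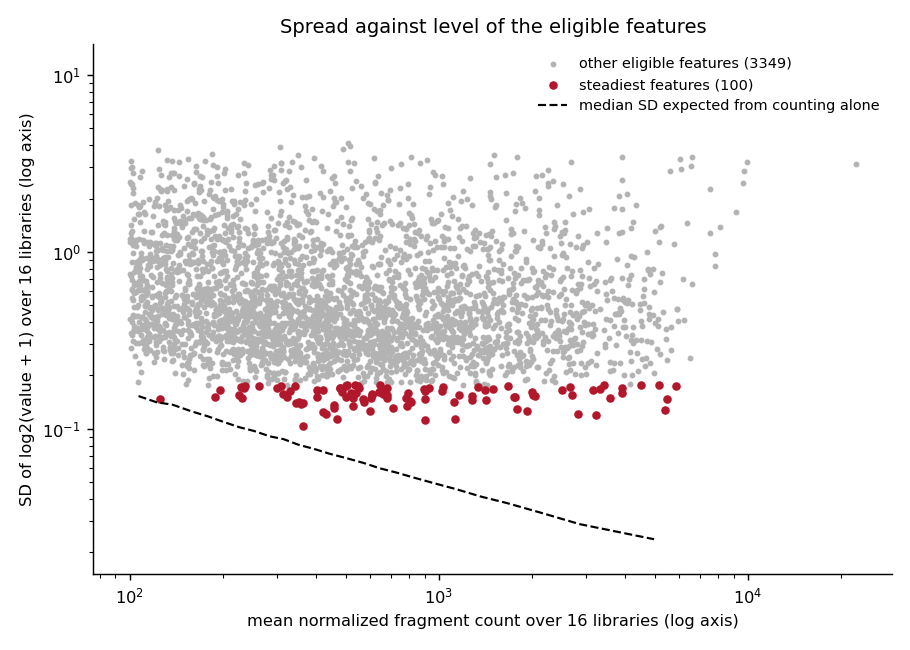
SD of log2(value + 1) over the 16 libraries (vertical log axis) against mean normalized fragment count (horizontal log axis), 1 point per eligible feature, with the 100 steadiest in red. The dashed line is the median SD that counting fragments alone would give in bins of mean count, and the red points lie above it except near the lowest means, where PITAhm_002709 comes closest.

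How close the list came to the limit set by depth was read from the estimated fragments. Counting fragments gives an SD of its own, which falls as the level increases. For the 100 features it was 0.0193 to 0.129 with a median of 0.0573. The observed SD was 1.14 to 8.99 times the counting SD, with a median of 2.71, and over the eligible features the median was 6.69. In 22 of the 100 the observed SD was under 2 times the counting SD, as in 52 of the 3449 eligible features. PITAhm_002709 had the smallest ratio, 1.14, so nearly all of its spread was of the size that counting gives at its depth. PITA_000000293 had the largest, 8.99, and its libraries thus differed by far more than counting error although its SD was only 0.173.

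The list was unevenly spread over the levels. The eligible features were split by mean value into 5 classes of 689 or 690. The lowest class, with means of 100.2 to 192, held 2 of the 100, and the next held 12. The following classes, in rising order of level, held 33, 23 and 30. The median SD of all eligible features was 0.604 in the lowest class and 0.473, 0.423, 0.415 and 0.448 in the following ones. In 229 eligible features the counting SD alone was above the edge of the list. The counting SD is averaged over the libraries and is raised where a feature has low values in some of them. In the lowest class its median was 0.140, under the edge of 0.176. The 229 are therefore not read as a limit set by depth.

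The identifiers, which the rule did not use, are of 3 kinds by their prefix. Of the 100 features 55 were PITA loci, 41 were PITAhm loci and 4 had transcript names. Among the eligible features PITA loci made up 67.1%, PITAhm loci 27.6% and transcript-named features 5.22%. Thus 4.30% of the eligible PITAhm loci were on the list, against 2.37% of the PITA loci and 2.22% of the transcript-named features. Eligible PITAhm loci had a median of mean values of 387, against 506 for PITA loci. Over the 5 classes of level, in rising order, 1 of 218, 7 of 199, 17 of 207, 9 of 182 and 7 of 147 PITAhm loci were on the list. Of the PITA loci it was 1 of 415, 4 of 435, 15 of 453, 12 of 482 and 23 of 531. The lowest class held 1 locus of each prefix. The median SD of eligible features was 0.438 for PITAhm and 0.482 for PITA. By class, in rising order of level, it was 0.498, 0.407, 0.404, 0.365 and 0.479 for PITAhm. For PITA it was 0.773, 0.528, 0.438, 0.430 and 0.423, so the order was reversed in the highest class. These shares are given without a test, and what the prefix stands for is not given in the sources used here.

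Spread between libraries was also compared between treatments. Among the eligible features 71.4% had a higher SD over the 8 paste libraries than over the 8 control libraries, with medians of 0.483 and 0.353. Among the 100 it was 52 features, with medians of 0.152 over the paste libraries and 0.142 over the controls. Group by group, the median SD of the 100 was 0.142 in paste day 15, 0.136 in paste day 5, 0.139 in control day 15 and 0.127 in control day 5. For the eligible features the same medians were 0.507, 0.419, 0.336 and 0.272. The medians of the list lay close together, while those of the eligible features were higher with paste than in controls on both days. The choice over all libraries favours this.

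**Figure D3:**
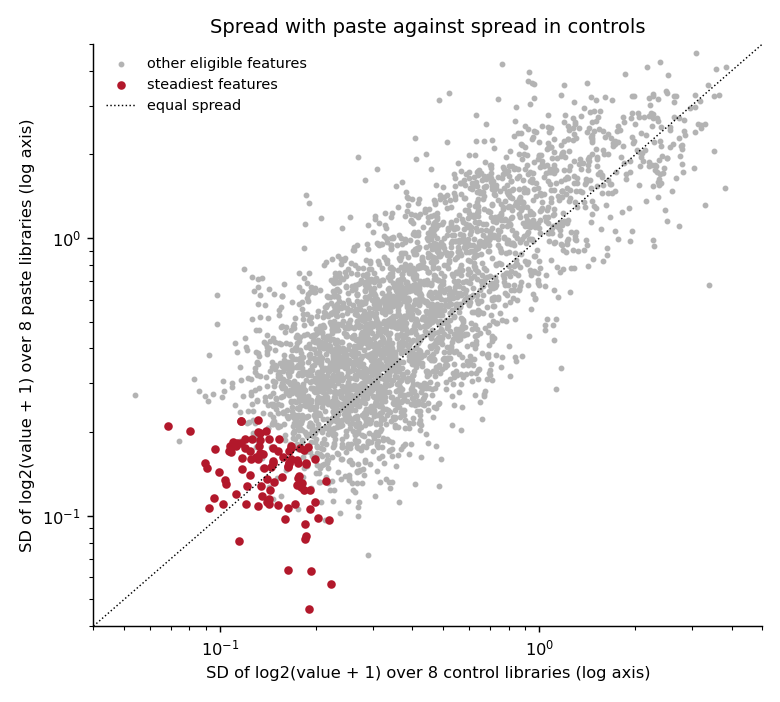
SD of log2(value + 1) over the 8 paste libraries (vertical log axis) against that over the 8 control libraries (horizontal log axis), 1 point per eligible feature, with the 100 steadiest in red and a dotted line of equal spread. Most grey points lie above the line, whereas 52 of the 100 red points do.

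The rule was also run on each treatment alone and read in the other, whose spread then had no part in the choice. The most abundant features of the controls were set aside in both directions, so the controls still entered the choice with paste. The average of at least 100 was taken over the choosing libraries alone. That left 3370 features when choosing in controls and 3459 when choosing with paste. In this paragraph and the next, these are the eligible features. The 100 steadiest features of the 8 control libraries had a median SD of 0.119 there. In the 8 paste libraries their median SD was 0.237, against 0.474 for the eligible features. Of these 100, 91 lay below the eligible median with paste, 69 were in the lowest 25% and 13 among the 100 lowest. Their highest SD with paste was 0.774. Choosing in the paste libraries gave a median SD of 0.125 there and 0.192 in the controls, where the eligible features had 0.353. In that direction 97 lay below the eligible median, 70 in the lowest 25% and 13 among the 100 lowest. Features chosen in either treatment thus had a lower median SD in the other than the eligible features did. The eligible features were not matched to them by level, on which the counting SD depends, so nothing more is read from this. Most of the features chosen in either treatment were not among the steadiest 100 of the other.

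The lists chosen in controls and with paste shared 13 of their 100 features each, and all 13 were among the 100 described here. The list over all libraries held 38 of those chosen in controls and 45 of those chosen with paste. The median level of a feature chosen in controls also moved between treatments, by 0.18 on the log2 scale in either direction, where an eligible feature moved by 0.29. For features chosen with paste the median shift was 0.15, and 0.30 for the eligible features. The largest shifts of chosen features were 0.78 and 0.54, so an even level within a treatment did not always mean the same level across treatments.

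Differences between the groups were small by construction, and their sizes show what the rule let through. For paste against control at day 5 the difference of mean log2 values ran from -0.34 to 0.28 with a median of -0.02, which is at most 1.27-fold. In 51 of the 100 it was within 0.1 either way, as in 16.6% of the eligible features. At day 15 it ran from -0.28 to 0.27 with a median of 0.05, and 49 were within 0.1. Between day 15 and day 5 the range was -0.24 to 0.23 with paste, and 72 were within 0.1. In controls it was -0.33 to 0.23, and 57 were within 0.1. For paste against control at day 5 the lower and upper quartiles of the eligible features were -0.38 and 0.30, so the range of the list lay inside them.

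The largest positive paste difference at day 5 belonged to PITAhm_001108. It measured 546, 601, 560.5 and 541 with paste at day 5, against 518, 469, 392 and 482 in controls at day 5, a difference of 0.28 on the log2 scale. The 2 groups did not overlap. At day 15 it measured 558, 467, 584 and 604 with paste and 496, 499, 507 and 528 in controls, where the groups overlapped and the difference was 0.12. PITA_000041965 came next with 0.25 at day 5, from means of 465 ± 39.7 with paste and 390.0 ± 29.7 in controls (SD, n = 4 each). Its day 15 means were nearly equal, 416 ± 41.4 with paste and 417 ± 62.8 in controls.

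At the other end stood PITAhm_002473, with a day 5 difference of -0.34. Its values with paste at day 5 were 1377, 1793, 1460.2 and 1483, against 1919, 1903, 2036 and 1867 in controls at day 5. At day 15 they were 1519, 1443, 1597 and 1474 with paste and 1826, 1701, 1678 and 1745 in controls, a difference of -0.20. Paste and control libraries did not overlap on either day, and 75.8% of its variance lay between the groups, the highest share of the list. PITA_000011649 measured 559, 487, 536 and 552 with paste at day 5, against 665, 634, 619 and 728 in controls, a difference of -0.31 without overlap. At day 15 its difference was -0.03, with means of 608 ± 51.2 with paste and 621 ± 59.5 in controls (SD, n = 4 each).

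In the linear model fitted to all 5856 features with enough signal (limma, Benjamini-Hochberg adjusted p below 0.05), none of the 100 was called in any comparison. For paste against control at day 5 the model called 0.632% of all features tested, and 5 of the 100 had an unadjusted p below 0.05, against 17.4% of all features. It called 0% of all features for paste against control at day 15, for day 15 against day 5 with paste, for the same days in controls and for the difference of the paste effects. The numbers of the 100 with an unadjusted p below 0.05 were then 1, 0, 2 and 0, against 9.2%, 3.65%, 9.99% and 1.06% of all features. The 0% for time with paste held with any 1 library left out. With paste day 15 replicate 3 and both near-identical libraries left out, 1149 of 5727 features were called for this comparison (20.1%). None of them were among the 100. Replicate 3 had been singled out for lying near the day 5 libraries, so this refit cannot serve as a test of time. It also leaves fewer libraries in each paste group. For time in controls, a fit of those 8 libraries alone called 68 of 5405 features (1.26%), and 56 with the replicate number as a block, again none of the 100. Precision weights on the deposited scaled values (limma's voom with library quality weights) also called none of the 100, with 2, 6, 0, 4 and 0 at an unadjusted p below 0.05 for paste at day 15, paste at day 5, time with paste, time in controls and the difference. Over all features the same weights called 135 for paste at day 5 (2.31%), 40 for time in controls (0.683%) and 0 in the other comparisons. At an unadjusted p below 0.05 they gave 568, 1290, 795, 1217 and 139 of the 5856 features in the same order. The rule used the same libraries, so nothing is read from these counts.

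Groups without overlap were present in the list all the same. With paste at day 5, 3 of the 100 lay wholly above the controls (6.63% of all features tested) and 7 wholly below (6.49%, and 13.1% in either direction). At day 15, 1 lay above (1.91%) and 1 below (1.72%, and 3.64% in either direction). Between the days with paste, 1 lay wholly higher at day 15 (0.359% of all features) and 0 wholly lower (0.359%, and 0.717% in either direction). In controls, 0 lay wholly higher at day 15 (6.25% of all features) and 5 wholly lower (6.93%, and 13.2% in either direction). The rule used the same values, and nothing is read from these shares either. Over the list 8 features had more than 50% of their variance between the groups, while 15.0% of the eligible features did. The median share was 21.8% for the 100 and 30.2% for the eligible features, where the groups hold 3 of the 15 degrees of freedom, or 20.0%.

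**Figure D4:**
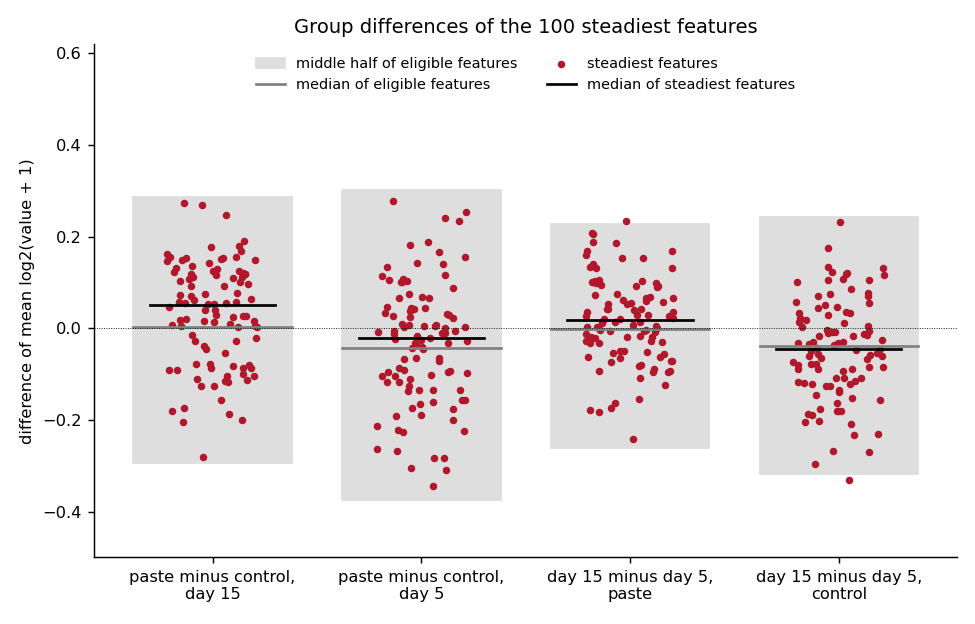
Difference of mean log2(value + 1) between groups (vertical axis) for paste minus control at day 15 and day 5 and for day 15 minus day 5 with paste and in controls, 1 red point per feature of the 100 with a black line at their median. Grey boxes span the lower to upper quartile of the eligible features with a line at their median, and the red points stay between -0.34 and 0.28.

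The rule leaves out features with large variation, shared or not, so how far the list varied together follows in part from the choice. A principal component analysis of centred, unscaled log2 values put 17.9% of the list's variance on the first component and 15.5% on the next. For the eligible features it put 52.7% on the first. Features of high SD weigh most there, so these shares are not set against each other. The mean correlation across the 16 libraries over the 4950 pairs of features was 0.038, and single pairs ran from -0.818 to 0.867. Over the pairs of eligible features the mean was lower, 0.0037. These correlations share libraries, depth and scaling and are given as a description. Correlations above 0.5 in size made up 10.3% of the pairs on the list and 32.3% of the pairs of eligible features.

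One library contributed more than the others to the spread that remained. Control day 15 replicate 1 was the library farthest from a feature's own mean in 24 of the 100, and the next libraries in 10. The SD of the 100 deviations in that library was 0.212, and 0.107 to 0.171 in the others. It was also the library with the fewest estimated fragments, 3323971, the next having 3934755. The part of depth in this was not tested. PITAhm_000072 had the largest deviation of any single library on the list, 787 in control day 15 replicate 1, where the other control day 15 libraries measured 529 to 556. With paste it measured 492, 493, 498 and 600.3 at day 15 and 477, 503, 543 and 551 at day 5. When that library was left out, the rule took 76 of the 100 features again, the lowest number over the 16 libraries left out in turn, and the highest was 93. In all, 68 features were taken in every one of those 16 runs.

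Which features the rule took also depended on how the libraries were scaled. Under the authors' scaling the 100 had median deviations from their own means of -0.07 to 0.06 on the log2 scale in single libraries. Summed over the 100, the normalized counts ran from 116312 to 132844, a ratio of 1.14. The total of all features in a library ran from 3562719 to 5948021, a ratio of 1.67. The 100 thus took 2.09% to 3.31% of the total. Bulk RNA of this kind cannot tell a lower number of cells of a type from less RNA per cell, and it gives shares of the RNA and no amounts per cell.

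The share was low in 5 libraries, 2.09% in paste day 5 replicate 4, 2.15% in paste day 15 replicate 3, 2.25% in control day 15 replicate 1, 2.30% in paste day 5 replicate 2 and 2.41% in control day 5 replicate 3. It was 2.78% to 3.31% in the other 11. These 5 were also the libraries with the highest totals, 5170874 and above against at most 4521038. The totals are sums of scaled values and not depth. The 5 held 3323971 to 4811555 estimated fragments, and the other 11 held 4149629 to 5203943. They had a value above 0 for 6351 to 6567 features, against 6662 to 6901 in the other 11. In the same 5 the 100 most abundant features of the library itself took 39.6% to 43.5% of the total, and 30.4% to 35.8% in the others. The low-share libraries came from all 4 groups.

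With each library scaled to its total in place of the deposited scaling, the median deviation of the 100 was -0.39 to -0.23 in those 5 libraries and 0.02 to 0.32 in the others. The eligible features shifted likewise, with medians of -0.33 to 0.27. The median SD of the 100 was then 0.274, and their median place among the 3460 eligible features was 384. Of the 100 features 10 were still among the 100 of lowest SD. Under the deposited scaling, the 100 steadiest features of total scaling had a median SD of 0.249 and a median place of 427.5. Scaling by the median of ratios took 98 of the 100 again and by a trimmed mean 93. Their factors relative to the deposited values were 0.998 to 1.01 and 0.982 to 1.02, against 0.796 to 1.33 for total scaling.

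PITAhm_000070 and PITA_000019200 kept the best places over all the scalings tried. PITAhm_000070 was 34th with the deposited scaling and 33rd with total scaling, with SDs of 0.149 and 0.170. It averaged 3508 ± 384 and 3719 ± 699 with paste at day 15 and day 5, and 3496 ± 263 and 3595 ± 124 in controls at day 15 and day 5 (SD, n = 4 each). PITA_000019200 was 72nd and 25th, with SDs of 0.167 and 0.165. It averaged 3135 ± 377 and 3289 ± 526 with paste, and 3316 ± 206 and 3601 ± 374 in controls, in the same order of days. PITAhm_003158, the steadiest under the deposited scaling, was 347th under total scaling, with an SD of 0.267.

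**Figure D5:**
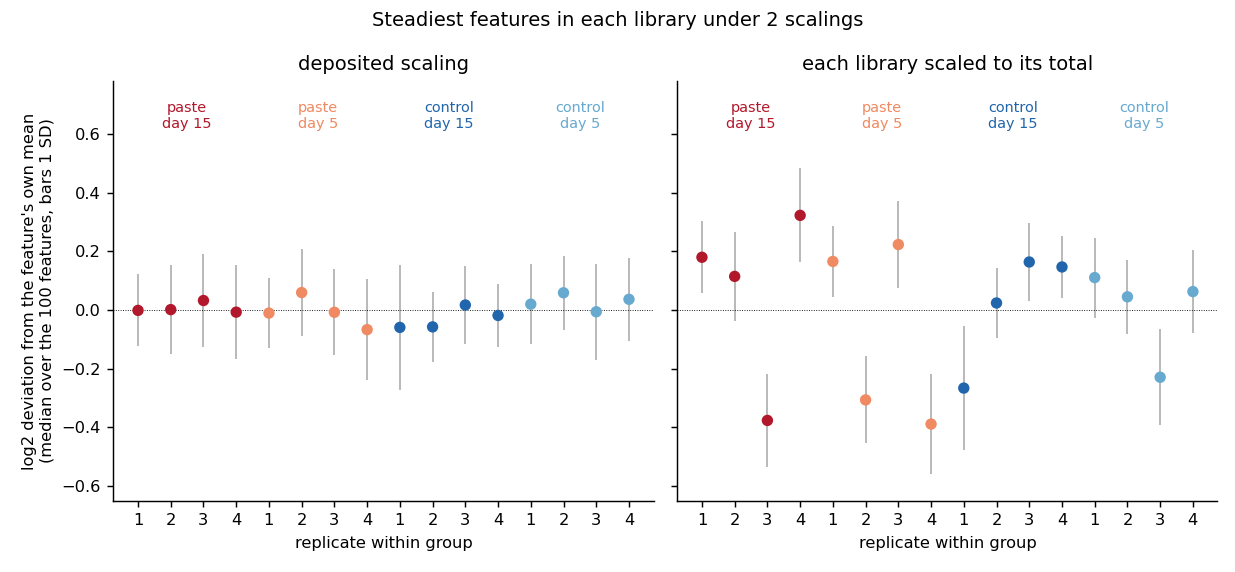
Deviation of log2(value + 1) from each feature's own mean (vertical axis) in the 16 libraries, as the median over the 100 features with bars of 1 SD over features, under the deposited scaling (left) and with each library scaled to its total (right). Medians stay between -0.07 and 0.06 on the left and between -0.39 and 0.32 on the right, where 5 libraries of all 4 groups lie below -0.2.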

How the data were processed

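Each deposited value is a signal: estimated fragments of a feature over the library's size factor, to judge by the file headers and the numbers themselves. FastQC, Trimmomatic 0.32, HISAT2 2.0.4 and Cufflinks 2.1.1 were used, per the submitters' processing notes. Libraries were depleted of ribosomal RNA and read from a single end for 125 bases, per the labels' protocols. The sources used here do not name the build, annotation, strand setting or treatment of multiply mapped reads, so features with near-identical copies or overlaps are uncertain.

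Low values, up to 20.5 steps of 0.688 to 1.56, were within 0.1 of whole multiples of the library's step in 96.6% to 98.0% of cases. A step was taken as 1 fragment. Low values also held fractions, so count models were not run. Counting SDs assume Poisson error of fragments and cover counting error only.

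The 100 features and the rule for naming (lowest SD, extreme means and day 5 differences, edge of the list, largest single deviation, best places over scalings) were chosen with earlier results of these data known. The word lists for descriptions could not be used without names. Group means were fitted to log2(value + 1) of 5856 features with at least 10 in at least 4 libraries, with limma 3.58.1 in R 4.3.3 (trend, robust, 12 residual degrees of freedom, two-sided). Other values came from Python 3.11.15 with pandas 2.3.3. The fit and the rule were also run on simulated data. There the planted steady features were set well apart in spread from all others, unlike the edge of this list. Those runs check the code and cannot show that the rule finds truly steady features here. P-values set a group difference against the spread between these libraries within groups. In the main fit that spread was pooled over all 4 groups, so comparisons of controls also drew on the paste libraries. Same-numbered control libraries of the 2 days deviated together, with correlations of 0.245 to 0.559 over features in all 4 pairs. The numbers were therefore taken to pair the samples in that comparison only, a pairing that comes from the data and not from the labels.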

Additional observations from a re-analysis of the deposited data

Results flagged for a closer look

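Of 96 groups of 4 values examined for the 19 named features and 5 library measures, 4 held 1 library far from the other 3. Chance gives about 1 in 20 for groups not picked for their extremes, and many of the named features were so picked. PITA_000000598 was at 838 in control day 5 replicate 1, where the others of the group had 932 to 945. PITAhm_000072 was at 600.3 in paste day 15 replicate 4, with 492 to 498 in the others of its group. The same feature was at 787 in control day 15 replicate 1, with 529 to 556 in the others. It was named for that very deviation, so the rate of 1 in 20 does not apply there. Control day 15 replicate 1 held 3323971 estimated fragments, and the others of its group 4548003 to 4798513. No comparison of effects between days or treatments was called for any of the 100 features.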

How the results depend on the processing

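Of the 100 features, 10 were taken again with total scaling, 46 with the median absolute deviation, 38 from control libraries alone and 45 from paste libraries alone. The last 2 used fewer libraries, and the cause of the others was not tested. Leaving out 1 library in turn kept 76 to 93. With total scaling the median SD of the 100 was 0.274 in place of 0.155, and its median ratio to the counting SD was 4.94 in place of 2.71. The other ways of choosing the list (pseudocounts of 0.5 and 4, median-of-ratios and trimmed-mean scaling, the coefficient of variation, the SD within groups, variance beyond counting, means of at least 50 or 200, the most abundant features included, and 3 paste libraries left out) kept 68 to 100, and those added after seeing the data (the near-identical pair left out, the members' median deviation taken out) 85 and 90.

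None of the 100 was called in the comparisons fitted under the 28 alternative settings, the replicate block included (0 with the block). Of these, 26 gave all 5 comparisons, the fit of only the groups compared gave 4 (no difference of the paste effects), and the control libraries with the block gave 1. Over all features, calls for paste against control at day 5 ran from 7 to 513 over these settings, where 37 were called. For paste at day 15 they ran from 0 to 3, for time with paste from 0 to 1149, for time in controls from 0 to 68 and for the difference from 0 to 12. The highest counts, 1149 and 513, came from leaving out paste day 15 replicate 3 together with both near-identical libraries, and leaving out paste day 15 replicate 3 alone gave 170 for day 5. With the replicate block the day 5 count was 21, and for time in controls, fitted on those 8 libraries, it was 68 without the block and 56 with it. Count models planned for recovered reads were not run. The counting SD of the 100 was at most 0.129, under the edge of 0.176. Whether depth kept other features off the list was not tested.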
